A study of Mus musculus with 12 samples.

Results

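The immediate early genes followed through this RNA sequencing study of primary mouse hepatocytes were 10 in number: Fos, Fosb, Fosl1, Fosl2, Jun, Junb, Egr1, Ier2, Ier3 and Atf3. They were chosen by symbol, as the rows of the deposited count table whose Ensembl identifier carries one of these names. Genes of this kind are also known to respond to the handling of cells. All 10 were found among 55414 genes, and all 10 were among the 14919 genes that passed the filter on low counts. Hepatocytes are the main parenchymal cells of the liver. The cells were Hnf4a knockout (KO) or wild type (WT), and each genotype received MJ041 or DMSO vehicle. Each of the 4 groups (KO with MJ041, KO with vehicle, WT with MJ041 and WT with vehicle) held 3 libraries, 12 in all. MJ041 is known here by its code name alone. The labels give no dose, no duration of treatment, no Cre driver or deleted exon, and no age or sex of the mice. They do not say whether replicates are separate animals, so each p-value measures the spread between these libraries, which may be technical.

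Library totals lay between 16740761 and 17902832 counts. Hnf4a, the nuclear receptor gene that was targeted, had 59.9, 76.0 and 66.7 CPM (counts scaled to a common library total with edgeR's TMM factors, here and below) in KO cells with MJ041 and 61.1, 67.8 and 66.4 CPM in KO cells with vehicle. It had 166, 178 and 142 CPM in WT cells with MJ041 and 121, 137 and 112 CPM in WT cells with vehicle, so every KO library lay below every WT library, although Hnf4a reads remained in each. The 9 hepatocyte markers found, Hnf4a among them, summed to between 23602 and 27219 CPM in KO libraries and to between 51282 and 66793 CPM in WT libraries, most of it from albumin (Alb). Markers of other liver cells were also present. The mean log2 CPM of 39 markers of Kupffer, endothelial and stellate cells was 3.22, 3.48 and 3.38 in KO with MJ041, 2.94, 3.44 and 3.32 in KO with vehicle, 1.88, 2.33 and 3.36 in WT with MJ041, and 3.01, 2.76 and 3.54 in WT with vehicle. Replicates 1 and 2 of WT with MJ041 thus stood below the other 10 libraries. In bulk RNA, fewer cells of a type and less RNA per cell cannot be told apart. Of the lymphocyte, neutrophil and red cell markers, S100a9 had 2 counts over all 12 libraries, Nkg7 had 4 and Hbb-bt had 0, while the leukocyte marker Ptprc averaged 3.16 CPM in WT with MJ041 and 6.28 CPM in WT with vehicle. Kupffer and stellate lists held both abundant and near-absent members: over all 12 libraries Mpeg1 had 40163 counts, Clec4f 1720 and Cd163 5, and Ecm1 had 12502, Dcn 3348 and Lrat 18.

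Immediate early genes are transcribed within minutes of a growth factor, cytokine or stress signal, without need of new protein, because the factors that switch them on are already present and are activated by phosphorylation. FOS and JUN family proteins pair to form AP-1, a dimeric leucine zipper factor. JUN proteins can pair with each other, whereas FOS proteins need a JUN partner. FOSL1 and FOSL2 lack the strong activation domain of FOS and FOSB and are produced for longer after a stimulus. In liver these genes are known to be induced by partial hepatectomy and by the isolation and plating of hepatocytes.

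Promoter windows were searched for cAMP response elements (CRE), which bind factors of the CREB and ATF family and are a classical input to this gene class. RefSeq promoter windows of build GRCm38.p6, running from 250 bases before the transcription start to 50 after it, were searched for 7 of the 10 genes, namely Fos, Fosb, Fosl2, Jun, Junb, Ier3 and Atf3. Those of Fosl1, Egr1 and Ier2 were not searched here. The 5 windows below are the ones that held a CRE core or a related element, while those of Fosl2 and Ier3 held neither. They lie at chr12:85473640-85473939 on the plus strand (Fos), chr7:19309996-19310295 on the minus strand (Fosb), chr4:95052173-95052472 on the minus strand (Jun), chr8:84978699-84978998 on the minus strand (Junb) and chr1:191183284-191183583 on the minus strand (Atf3). Each is written 5′ to 3′ on the strand of its gene. Capitals mark the CRE core TGACG or its complement CGTCA and, in Jun, an element that matches TGACNTCA.
Fos: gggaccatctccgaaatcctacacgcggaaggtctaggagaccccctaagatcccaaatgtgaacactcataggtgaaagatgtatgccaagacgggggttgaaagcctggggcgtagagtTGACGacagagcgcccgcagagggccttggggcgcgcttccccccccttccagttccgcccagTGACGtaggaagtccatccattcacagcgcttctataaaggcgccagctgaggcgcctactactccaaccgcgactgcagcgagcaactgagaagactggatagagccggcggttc
Fosb: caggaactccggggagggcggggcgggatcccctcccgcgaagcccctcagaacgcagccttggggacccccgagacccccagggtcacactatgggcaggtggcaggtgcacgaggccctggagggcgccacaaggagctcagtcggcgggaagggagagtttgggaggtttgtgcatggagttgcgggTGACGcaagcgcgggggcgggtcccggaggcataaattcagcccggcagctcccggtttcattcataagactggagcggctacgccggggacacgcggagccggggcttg
Jun: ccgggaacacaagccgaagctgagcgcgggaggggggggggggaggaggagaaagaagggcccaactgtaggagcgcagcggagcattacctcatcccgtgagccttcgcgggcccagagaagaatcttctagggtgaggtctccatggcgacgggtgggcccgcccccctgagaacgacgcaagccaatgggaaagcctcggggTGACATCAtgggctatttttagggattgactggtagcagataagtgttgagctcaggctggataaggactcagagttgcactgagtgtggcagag
Junb: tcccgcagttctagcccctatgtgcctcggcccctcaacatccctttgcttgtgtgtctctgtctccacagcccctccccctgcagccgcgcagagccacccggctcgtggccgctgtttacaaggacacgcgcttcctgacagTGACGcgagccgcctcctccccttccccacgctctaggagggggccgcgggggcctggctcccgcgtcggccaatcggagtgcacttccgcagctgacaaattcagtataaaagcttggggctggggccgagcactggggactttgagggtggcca
Atf3: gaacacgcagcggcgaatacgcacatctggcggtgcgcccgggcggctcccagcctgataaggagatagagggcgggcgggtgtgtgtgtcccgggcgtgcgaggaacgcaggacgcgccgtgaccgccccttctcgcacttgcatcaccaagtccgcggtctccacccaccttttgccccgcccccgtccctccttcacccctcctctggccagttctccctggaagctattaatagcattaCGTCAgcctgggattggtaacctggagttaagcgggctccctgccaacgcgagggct

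On either strand, the CRE core was found in 4 of the 7 windows, against 20.8% of all 32851 windows of this length in the table. Its first base lay at -129 and -66 from the transcription start of Fos, at -60 in Fosb, at -106 in Junb and at -7 in Atf3. None of the 7 windows held the full palindrome TGACGTCA, present in 1.79% of all windows. The AP-1 element TGAGTCA or its complement TGACTCA was in none of the 7 and in 5.2% of all. The CArG box of serum response factor was in none of the 7 and in 1.63% of all. The letters TGACNTCA, searched for after the sequences had been seen and overlapping the CRE core and the full palindrome in part, were found at -45 in Jun and in 8.83% of all windows. These are matches of letters in a short window and say nothing of binding in these cells.

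Per length, the 10 genes covered a wide range of levels. Ier3 had the highest mean over the 12 libraries, 127.8 CPM per kilobase of exon, and Fosb the lowest, 0.765 CPM per kilobase. Between them came Junb (68.3), Fosl1 (50.1), Jun (49.5), Ier2 (35.8), Atf3 (30.6), Egr1 (12.2), Fosl2 (10.3) and Fos (3.49 CPM per kilobase). The libraries of Fosl1 and Jun, neighbours in this order, overlapped within each of the 4 groups. Ier3 lay above every other gene, and Fos and Fosb lay last, without overlap, in each of the 4 groups. Ier2 and Atf3 overlapped in 3 of the 4 groups, as did Egr1 and Fosl2; WT with vehicle was the group without overlap for both pairs. Raw counts ran from 33 for Fosb in its lowest library to 4223 for Jun in its highest, so Fosb carried the largest counting error.

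**Figure D1:**
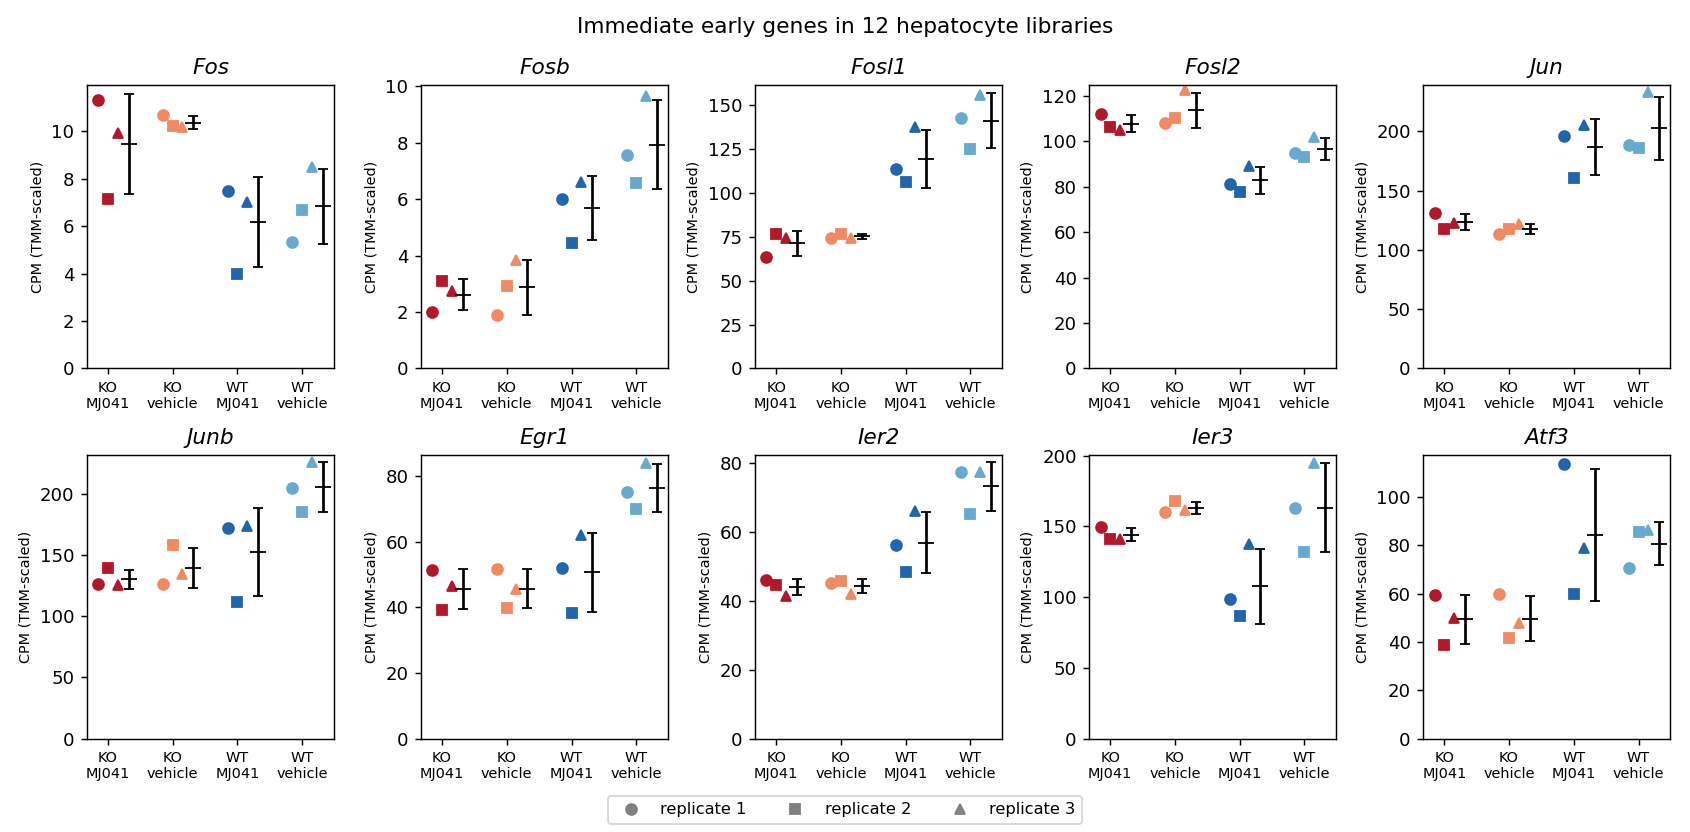
Level of each immediate early gene in each library, as TMM-scaled CPM on a linear axis from 0, with symbols for replicates and, beside them, the group mean with bars of 1 SD (n = 3). Fosl1, for example, lies between 63.4 and 76.9 CPM in the 6 KO libraries and between 106 and 156 CPM in the 6 WT libraries.

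The composition of the FOS family differed between the genotypes. As a share of the summed FOS family level (CPM per kilobase), Fosl1 made up 65.1% to 72.3% in KO with MJ041 and 67.6% to 70.0% in KO with vehicle. Its share was 81.7% to 83.6% in WT with MJ041 and 82.0% to 84.1% in WT with vehicle. Fosl2 made up 20.9% to 24.2% of the family in KO with MJ041 and 21.0% to 23.3% in KO with vehicle, against 11.4% to 12.8% in WT with MJ041 and likewise 11.4% to 12.8% in WT with vehicle. For both genes the shares of the 6 KO and the 6 WT libraries did not overlap. The ratio of Fosl1 to Fosl2 per kilobase was 2.695 to 3.44 over KO libraries with MJ041 and 2.90 to 3.33 with vehicle, against 6.51 to 7.36 over WT libraries with MJ041 and 6.41 to 7.30 with vehicle.

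Fos itself was a minor member, at 5.82% to 10.04% of the family level in KO with MJ041, 7.99% to 8.61% in KO with vehicle, 2.71% to 4.64% in WT with MJ041 and 2.72% to 3.91% in WT with vehicle. Fosb held at most 1.14% in KO libraries and at most 1.67% in WT libraries. The summed FOS family level was 47.9 to 52.3 CPM per kilobase in KO with MJ041 and 52.7 to 54.3 in KO with vehicle, below the 62.8 to 81.1 of WT with MJ041 and the 75.0 to 92.5 of WT with vehicle. Jun plus Junb summed to 92.9 to 97.6 CPM per kilobase in KO with MJ041 and 90.6 to 105.6 in KO with vehicle. The same sum was 98.7 to 140.2 in WT with MJ041 and 139.1 to 171.5 in WT with vehicle, so that it did not overlap between the genotypes with vehicle, while with MJ041 the gap was narrow. Shares of a sum depend on each other, and they rest on exon lengths of an annotation of another build.

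**Figure D2:**
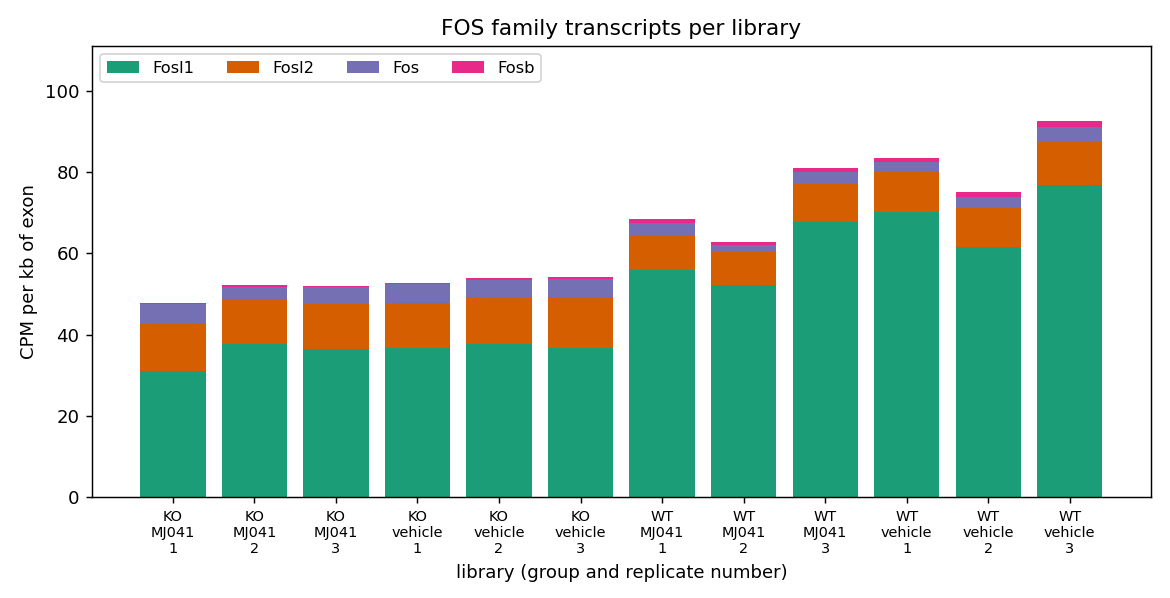
Stacked levels of the 4 FOS family genes in each library, in CPM per kilobase of exon. The stacks reach 47.9 to 54.3 in KO libraries and 62.8 to 92.5 in WT libraries, and Fosl1 is the largest layer in each.

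The first comparison set KO against WT cells with vehicle. Most of the immediate early genes were lower in KO cells: 7 of 10 fell, Fos and Fosl2 rose, and Ier3 did not pass the test. Fosb fell by 1.46 on the log2 scale, the largest change of the 10, and Fosl2, with 0.23, had the smallest among those that passed. Of all genes tested, 54.5% passed the same test (edgeR's quasi-likelihood test, Benjamini-Hochberg adjusted p below 0.05), 27.5% as higher and 26.9% as lower in KO. The libraries of KO and WT did not overlap for 9 of the 10, against 63.1% of all genes. The median log2 fold change was -0.71 over the 10 and -0.00 over all genes tested. Log2 fold changes are given with their standard error (SE), which rests on the fit to all 12 libraries, 3 per group.

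Among the FOS genes with vehicle, Fosb, which encodes a full-length AP-1 subunit close to FOS, had 1.89, 2.91 and 3.85 CPM in KO and 7.56, 6.57 and 9.66 CPM in WT. Every KO library lay below every WT library, and the log2 fold change was -1.46 ± 0.26 (edgeR, adjusted p = 0.000374). Fosl1, which encodes the AP-1 subunit FRA1, had 74.7, 76.9 and 74.6 CPM in KO, against 143, 125 and 156 CPM in WT. The 3 KO values were close to each other and far below the lowest WT value, with a log2 fold change of -0.91 ± 0.10 (edgeR, adjusted p = 1.03e-05). Fosl1 shares exon sequence with Ccdc85b on the other strand, and the strand setting of the counting is not given in the sources used here. Ccdc85b, at 14.0 CPM in KO and 5.65 CPM in WT, changed by 1.31 (edgeR, adjusted p = 7.34e-06), the opposite direction.

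Fosl2, which encodes the related subunit FRA2, was higher in KO, at 108, 110.0 and 123 CPM, against 95.0, 92.9 and 102 CPM in WT. The groups were close but did not overlap, and the log2 fold change was 0.23 ± 0.07 (edgeR, adjusted p = 0.00885). That call was lost without replicate 3 of KO with vehicle (0.14, adjusted p = 0.141) and without replicate 2 of WT with vehicle (0.16, adjusted p = 0.106). Fos, the prototype of the family, had 10.7, 10.2 and 10.2 CPM in KO and 5.34, 6.69 and 8.50 CPM in WT. The KO libraries lay close together, the WT libraries were spread, and the groups did not overlap. The log2 fold change of Fos was 0.60 ± 0.23 (edgeR, adjusted p = 0.0434). This call lay near the threshold and was lost when any 1 of 7 libraries was left out: replicate 1 or 3 of KO with MJ041, each replicate of KO with vehicle, and replicate 1 or 2 of WT with vehicle. Over all 12 omissions the change stayed between 0.44 and 0.75, with adjusted p from 0.0243 to 0.165.

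Both JUN genes were lower in KO cells with vehicle. Jun, whose protein is the core partner of AP-1, had 113, 117 and 122 CPM in KO and 188, 186 and 233 CPM in WT. The highest KO library lay well under the lowest WT library, with a log2 fold change of -0.79 ± 0.10 (edgeR, adjusted p = 2.44e-05). Junb, an AP-1 subunit that is a weaker activator than JUN, had 127, 158 and 135 CPM in KO, against 205, 186 and 226 CPM in WT. Again the groups did not overlap, and the log2 fold change was -0.56 ± 0.14 (edgeR, adjusted p = 0.00534). Junb shares exon sequence with Prdx2 on the other strand, which had 198 CPM in KO and 138 CPM in WT and changed by 0.52 (edgeR, adjusted p = 5.94e-06), so it moved the other way. Jun shares exon sequence with the antisense transcript Junos, at 4.16 CPM in KO and 3.06 CPM in WT (0.44, edgeR, adjusted p = 0.145).

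Egr1, a zinc finger factor that answers ERK signalling through serum response factor, had 51.7, 39.8 and 45.7 CPM in KO and 75.2, 69.8 and 84.2 CPM in WT with vehicle. All 3 KO libraries lay below the WT libraries, and Egr1 changed by -0.74 ± 0.15 (edgeR, adjusted p = 0.00127). Atf3, a leucine zipper factor induced by stress that can pair with JUN, had 60.0, 41.4 and 47.7 CPM in KO, against 70.5, 85.5 and 86.4 CPM in WT. It changed by -0.70 ± 0.21 (edgeR, adjusted p = 0.0135), with no overlap, and the call was lost without replicate 2 of KO with vehicle (-0.59, adjusted p = 0.0571).

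Ier2 encodes a small nuclear protein and Ier3 a short-lived protein linked to cell survival. With vehicle, Ier2 had 45.1, 45.7 and 41.8 CPM in KO and 77.4, 65.0 and 77.1 CPM in WT. The groups stood apart, and the log2 fold change was -0.73 ± 0.10 (edgeR, adjusted p = 5.97e-05). Ier3 had 160.1, 168 and 162 CPM in KO, which fell inside the WT values of 163, 132 and 195 CPM. Its log2 fold change was -0.00 ± 0.15 (edgeR, adjusted p = 0.999), with a 95% interval from -0.33 to 0.32. The KO libraries of Ier3 spanned a narrower range than the WT libraries.

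The level of other-cell markers overlapped between these groups (2.94 to 3.44 in KO and 2.76 to 3.54 in WT with vehicle, as mean log2 CPM). With that level as a covariate in the fit, the same 9 genes passed, with log2 fold changes from -1.51 for Fosb to 0.59 for Fos. By list, 2 of 13 Kupffer markers rose and 1 fell, 1 of 14 endothelial markers rose and 1 fell, and 3 of 12 stellate markers rose and 3 fell. Of 6 cholangiocyte markers 3 rose and 1 fell, with a median log2 fold change of 0.06 and 3 of the 6 values negative. The bile duct keratin gene Krt19 (3.27) and Tspan8 (5.17) were among those that rose, and Sox9 (-0.73) was the one that fell. The 8 cholangiocyte markers found summed to 280.1 to 436 CPM in KO and 307 to 543 CPM in WT with vehicle. Most of these sums was Spp1, which averaged 245 CPM in KO and 362 CPM in WT with vehicle. As mean log2 CPM, the 6 tested did not overlap, at 4.15 to 4.49 in KO and 3.09 to 3.27 in WT with vehicle. The part of cholangiocyte markers in the differences of the 10 genes was not tested.

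**Figure D3:**
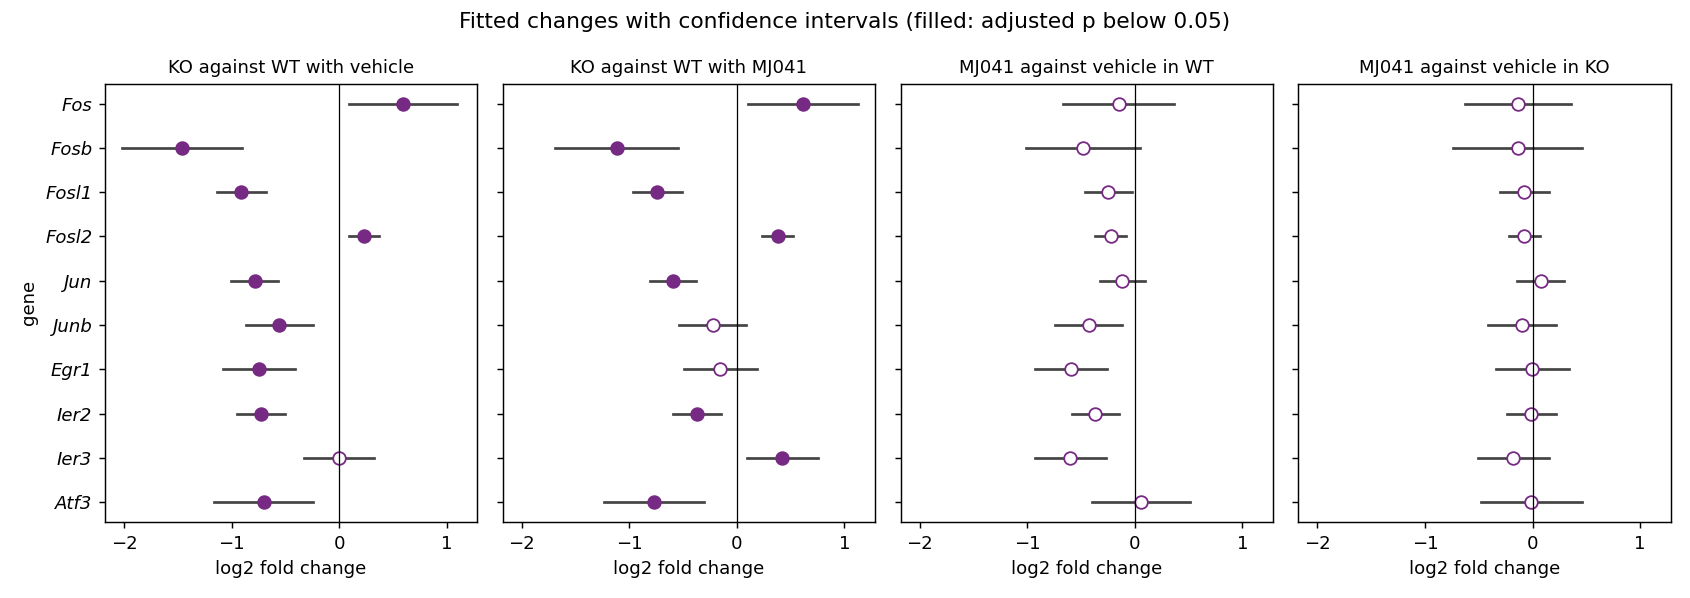
Log2 fold change of each immediate early gene in 4 comparisons from edgeR's fit to 12 libraries, with lines for the 95% interval and filled symbols for adjusted p below 0.05. With vehicle, KO against WT runs from -1.46 for Fosb to 0.60 for Fos, and both panels of MJ041 against vehicle hold open symbols alone.

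The second comparison set KO against WT cells that had all received MJ041. Of the 10 genes, 5 fell in KO (Fosb, Fosl1, Jun, Ier2 and Atf3), 3 rose (Fos, Fosl2 and Ier3), and Junb and Egr1 did not pass. Among all genes 54.4% passed, 26.8% as higher and 27.6% as lower. The libraries did not overlap for 7 of the 10, against 59.2% of all genes, so the share was near the background. The median log2 fold change was -0.30 over the 10 and 0.02 over all genes. Replicates 1 and 2 of WT with MJ041 were the libraries lowest in other-cell markers, so values with that level as a covariate, and without both libraries (which leaves 1 WT library, assumed to vary like the other groups), are given where they end or add a call. Part of the other-cell markers also differed in this comparison. Of those tested, 3 of 13 Kupffer markers rose and 1 fell, 3 of 14 endothelial markers rose, 6 of 12 stellate markers rose, and 3 of 6 cholangiocyte markers rose and 1 fell.

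With MJ041, Fosb had 2.00, 3.09 and 2.75 CPM in KO and 5.99, 4.43 and 6.62 CPM in WT, a log2 fold change of -1.12 ± 0.27 (edgeR, adjusted p = 0.00304). Fosl1 had 63.4, 76.8 and 74.3 CPM in KO, against 114, 106 and 138 CPM in WT, and changed by -0.74 ± 0.10 (edgeR, adjusted p = 5.88e-05). Neither gene's groups overlapped. Fosl2 had 112, 106 and 105 CPM in KO and 81.4, 77.8 and 89.1 CPM in WT, where all 3 WT values lay under the KO values (0.38 ± 0.07, edgeR, adjusted p = 0.000323). Fos had 11.3, 7.15 and 9.94 CPM in KO and 7.48, 4.003 and 7.04 CPM in WT. The lowest KO library of Fos fell under the highest WT library, with a log2 fold change of 0.61 ± 0.24 (edgeR, adjusted p = 0.0416). The Fos call was lost with the marker covariate (0.54, adjusted p = 0.141), without both WT libraries (0.42, adjusted p = 0.254), and on leaving out any 1 of 7 libraries: replicate 1 or 3 of KO with MJ041, each replicate of KO with vehicle, and replicate 2 of either WT group. Over the 12 omissions it lay between 0.36 and 0.77.

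Jun had 131, 118 and 122 CPM in KO and 196, 160.3 and 205 CPM in WT with MJ041, with no overlap and a log2 fold change of -0.60 ± 0.10 (edgeR, adjusted p = 0.000229). Junb had 127, 139.5 and 125 CPM in KO, within the span of 172, 111 and 174 CPM in WT. Its log2 fold change was -0.23 ± 0.14 (edgeR, adjusted p = 0.205), with a 95% interval from -0.54 to 0.09. Replicate 2 of WT was the low one, at 111 CPM. Without that library Junb changed by -0.43 (adjusted p = 0.00448), and without both WT libraries by -0.42 (adjusted p = 0.0191).

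Egr1 had 51.3, 39.3 and 46.4 CPM in KO and 51.9, 38.2 and 62.2 CPM in WT with MJ041, and the groups overlapped. Its log2 fold change was -0.15 ± 0.16 (edgeR, adjusted p = 0.434, 95% interval from -0.49 to 0.19), and over single omissions it lay between -0.35 (without replicate 2 of WT with MJ041) and 0.01 (without its replicate 3), with no call. Without both WT libraries it was -0.45 (adjusted p = 0.0397). Atf3 had 59.4, 38.9 and 49.7 CPM in KO, against 114, 59.8 and 79.1 CPM in WT, where the lowest WT library stood just above the highest KO library. Atf3 changed by -0.77 ± 0.21 (edgeR, adjusted p = 0.00789), and this call was lost with the marker covariate (-0.53, adjusted p = 0.0829).

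Ier2 had 45.9, 44.4 and 41.3 CPM in KO and 56.0, 48.3 and 65.9 CPM in WT with MJ041, without overlap (-0.37 ± 0.10, edgeR, adjusted p = 0.00810). Ier3 had 149.9, 141 and 141 CPM in KO, above the 98.7, 86.6 and 138 CPM of WT. The highest WT library, replicate 3, lay just under the KO libraries and had the highest other-cell marker level of its group. The log2 fold change of Ier3 was 0.42 ± 0.15 (edgeR, adjusted p = 0.0317). It was 0.11 (adjusted p = 0.452) with the marker covariate and 0.06 (adjusted p = 0.774) without both WT libraries. The call was also lost without any 1 of 7 libraries: each replicate of KO with MJ041, replicate 1 or 3 of KO with vehicle, and replicate 1 or 2 of WT with MJ041, with changes from 0.26 to 0.63 over the 12 omissions.

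This comparison shares no library with the one in vehicle, but the fits share their estimate of spread. Fosb, Fosl1, Jun, Ier2 and Atf3 were called lower, and Fos and Fosl2 higher, in both. Whether the genotype difference changed with MJ041 is the interaction, given after the MJ041 responses.

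The third comparison asked how WT cells with MJ041 differed from WT cells with vehicle, and it shares each of its groups with one of the comparisons above. None of the 10 genes passed edgeR's test, although 9 of the 10 log2 fold changes were negative. An unadjusted p below 0.05 was reached by 6 of the 10 (Fosl1, Fosl2, Junb, Egr1, Ier2 and Ier3) and by 3219 of all 14919 genes. Among all genes 2.21% passed, 1.19% as higher and 1.02% as lower. The groups did not overlap for Fosl2, Junb and Egr1, 3 of 10, against 22.3% of all genes. The median was -0.31 over the 10 and 0.03 over all genes. DESeq2, run on the same counts, called 4 of the 10 as lower: Fosl2 (adjusted p = 0.0471), Egr1 (0.00837), Ier2 (0.0260) and Ier3 (0.00516). DESeq2 was given 30185 genes without edgeR's low-count filter, but it applied its own default filter on mean counts before adjusting p. It called 906 genes in all. Without the filter, on the same 30185 genes, edgeR also called 4 of the 10 (Junb, Egr1, Ier2 and Ier3), and 1667 genes in all. With a block for replicate number, which the labels do not give as a pairing, edgeR called Egr1 (adjusted p = 0.0182) and Ier3 (0.0294). That fit called 649 of all 14919 genes. The count of called members thus moved with the filter, the tool and the block.

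Ier3 averaged 108 ± 26.6 CPM with MJ041 and 163 ± 31.5 CPM with vehicle in WT cells (SD, n = 3 each). Its log2 fold change was -0.60 ± 0.15 (edgeR, adjusted p = 0.0589), with a 95% interval from -0.93 to -0.27. Egr1 averaged 50.7 ± 12.03 CPM with MJ041 and 76.4 ± 7.23 CPM with vehicle, a log2 fold change of -0.59 ± 0.15 (edgeR, adjusted p = 0.0645, 95% interval from -0.92 to -0.26). For Egr1 all 3 libraries with MJ041 lay below all 3 with vehicle, whereas for Ier3 the highest library with MJ041 (138 CPM) lay above the lowest with vehicle (132 CPM). Ier2 averaged 56.8 ± 8.82 CPM with MJ041 and 73.2 ± 7.07 CPM with vehicle (-0.37 ± 0.10, edgeR, adjusted p = 0.0721). Its groups overlapped through a single pair of libraries, 65.9 CPM with MJ041 and 65.0 CPM with vehicle.

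Among the AP-1 genes in WT cells, Junb averaged 153 ± 35.8 CPM with MJ041 and 206 ± 20.4 CPM with vehicle (-0.43 ± 0.14, edgeR, adjusted p = 0.116). Fosb averaged 5.68 ± 1.13 CPM with MJ041 and 7.93 ± 1.58 CPM with vehicle (-0.48 ± 0.25, edgeR, adjusted p = 0.280). Fosl1 and Fosl2 differed by less, Fosl1 with -0.24 ± 0.10 (edgeR, adjusted p = 0.191) and Fosl2 with -0.22 ± 0.07 (edgeR, adjusted p = 0.0893). Jun had -0.11 ± 0.10, with a 95% interval from -0.33 to 0.10. Fos had -0.15 ± 0.24, with an interval from -0.67 to 0.37. Atf3 was the 1 gene with a positive value, 0.06 ± 0.21, with an interval from -0.39 to 0.51. For these last 3 genes the groups overlapped.

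These values moved with 2 other features of the WT libraries. Replicate 2 with MJ041 was the lowest of its group for all 10 genes, and the lowest of all 12 libraries for Fos, Fosl2, Junb, Egr1 and Ier3. Replicate 3 with vehicle was the highest of all 12 for Fosb, Fosl1, Jun, Junb, Egr1 and Ier3. Other-cell markers were also lower on average in WT cells with MJ041. The 13 Kupffer markers tested had a median log2 fold change of -0.60, and the 14 found had sums of 193 to 392 CPM with MJ041, against 260.3 to 524 CPM with vehicle. The 14 endothelial markers, all tested, had a median of -0.67 and sums of 177 to 313 CPM with MJ041, against 271 to 418 CPM with vehicle. The 12 stellate markers tested had a median of -0.42, and the 14 found had sums of 94.7 to 154 CPM with MJ041, against 151 to 188 CPM with vehicle. With the marker level as a covariate the changes were -0.50 for Egr1 (adjusted p = 0.188), -0.38 for Ier3 (0.127), -0.26 for Ier2 (0.240) and -0.10 for Fosl1. Without replicates 1 and 2 with MJ041, the changes were -0.30 for Egr1 and -0.24 for Ier3 (both adjusted p = 0.997). Without replicate 3 with MJ041, 6 of the 10 passed as lower, beside 2059 of all 15201 genes tested in that fit. Without replicate 2 with vehicle Ier2 and Ier3 passed, beside 574 of all 15227 genes tested. The part of other cells in these differences was otherwise not tested.

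In KO cells, MJ041 against vehicle gave no call among the 10 genes and none among all 14919 (0% passed in either direction, by edgeR). No member had an unadjusted p below 0.05, whereas 414 genes of the whole set did, and DESeq2 called none of the 10. The log2 fold changes lay between -0.18 for Ier3 and 0.08 for Jun, with a median of -0.08 and 0.01 over all genes. Ier3 averaged 144 ± 4.87 CPM with MJ041 and 163 ± 4.06 CPM with vehicle (SD, n = 3 each). It was the 1 gene of the 10 whose libraries did not overlap, against 9.51% of all genes, and its 95% interval ran from -0.50 to 0.15.

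For Egr1 the KO means were 45.7 ± 6.02 CPM with MJ041 and 45.7 ± 5.94 CPM with vehicle. Atf3 likewise had 49.3 ± 10.3 CPM with MJ041 and 49.7 ± 9.43 CPM with vehicle. Their 95% intervals, from -0.34 to 0.34 for Egr1 and from -0.48 to 0.46 for Atf3, bound the difference these libraries could hide. The narrowest interval was that of Fosl2, from -0.22 to 0.07, and the widest that of Fosb, from -0.74 to 0.46.

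The interaction asked whether the response to MJ041 differed between KO and WT cells. None of the 10 genes and none of all genes passed edgeR's test (0%), and DESeq2 called none of the 10. At an unadjusted p below 0.05 there were 2 members, Egr1 and Ier2, and 1980 genes in all. Egr1 had a difference of responses (KO minus WT) of 0.59 ± 0.22 (edgeR, adjusted p = 0.269), made up of -0.00 in KO and -0.59 in WT. Ier2 had 0.36 ± 0.15 (edgeR, adjusted p = 0.309), from -0.01 in KO and -0.37 in WT. Ier3 had 0.42 ± 0.21 (edgeR, adjusted p = 0.417), from -0.18 in KO and -0.60 in WT. The response was thus not shown to differ between genotypes for any of the 10. Without replicate 3 of WT with MJ041, Egr1 (0.76, adjusted p = 0.0456), Ier2 (0.48, adjusted p = 0.0439) and Ier3 (0.64, adjusted p = 0.0424) passed. Over the single omissions, between 0 and 852 genes of the whole set passed. The same 3 genes gave 0.48, 0.23 and 0.15 with the marker covariate, with adjusted p from 0.466 to 0.746.

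Within groups, most pairs of the 10 genes deviated in the same direction from library to library. Each gene's log2 CPM was taken as a deviation from its group mean, and the deviations of the 10 genes were correlated over the 12 libraries. Of the 45 pairs, 43 correlations were positive and 29 were above 0.5, with a median of 0.58. The strongest was between Ier2 and Ier3 (r = 0.89), followed among named AP-1 pairs by Fos with Jun (0.86) and Fos with Atf3 (0.82). The lowest was between Fosb and Atf3 (-0.18). These correlations are a description: the points share libraries, depth and cell preparation, and subtracting 4 group means leaves fewer free values than 12. Pairs of other genes were not summarized in this way, so the values are not shown to be particular to these 10.

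**Figure D4:**
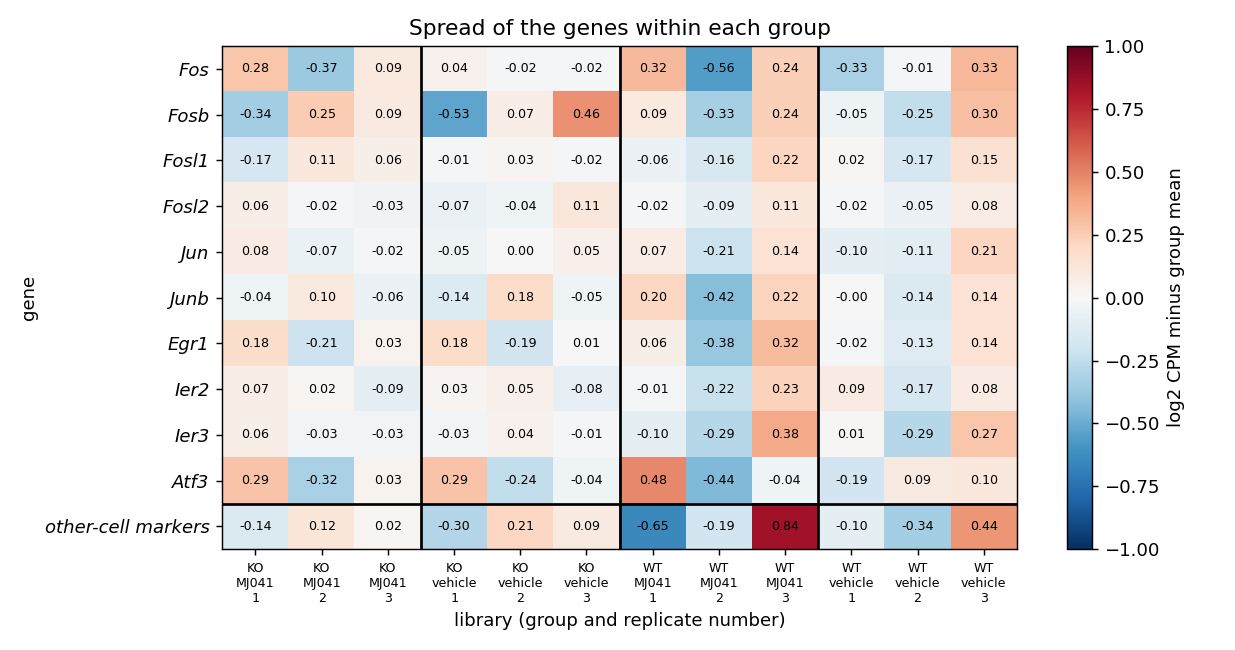
Deviation of log2 CPM from the group mean (color scale and printed values) for the 10 genes in each library, with the deviation of the mean level of 39 other-cell markers in the bottom row. Replicate 2 of WT with MJ041 lies below its group mean for all 10 genes, down to -0.56 for Fos.

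The deviations of some of these genes followed those of other-cell markers. The correlation with the marker level was 0.81 for Ier3, 0.79 for Fosl1, 0.63 for Fosl2, 0.59 for Ier2, 0.55 for Fosb, 0.50 for Jun, 0.43 for Junb and 0.31 for Egr1. It was 0.14 for Fos and -0.39 for Atf3. The whole set took 0.0718% to 0.0764% of the counts in KO with MJ041 and 0.0765% to 0.0781% in KO with vehicle. It took 0.0667% to 0.0971% in WT with MJ041 and 0.0952% to 0.119% in WT with vehicle, so the replicates were farther apart in WT. Other-cell markers also had their widest range in WT with MJ041, from 1.88 to 3.36 as mean log2 CPM, and their part in the spread of the 10 genes was not tested.

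The genes whose deviations over the 12 libraries were most like those of each member were found by Pearson correlation, among genes that averaged 5 CPM or more. Ier3 was closest to Cd274 (0.990), which encodes PD-L1, and to Ifit3 (0.981), an interferon-stimulated gene. Ier2 was closest to Isg15 (0.966), a ubiquitin-like modifier, and Gbp3 (0.963), a guanylate-binding protein. Fosl1 was closest to Cflar (0.977), which encodes the caspase inhibitor c-FLIP, and to the zinc finger factor Klf6 (0.972). Jun was closest to Zswim6 (0.971) and Rapgef4 (0.958), and Fosl2 to Kctd11 (0.962) and Mast4 (0.928). Fos was closest to Suco (0.950) and Sdr42e1 (0.946), and Fosb to Zeb1 (0.915) and Ppard (0.911). Junb was closest to Rnf149 (0.935) and Tbk1 (0.933), Egr1 to Riok2 (0.945) and Cd14 (0.934), and Atf3 to Itpkc (0.944) and Qpctl (0.934). These are the highest values among 10568 genes ranked for each member (10569 for Fosb), and so they are selected values.

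Other genes of the pathway were read from 6 lists chosen with earlier results of these data known. Their counts stand beside the shares of all genes tested in KO against WT. These were 27.5% higher and 26.9% lower with vehicle, and 26.8% higher and 27.6% lower with MJ041. Among 14 further AP-1 and bZIP partners tested, 2 rose and 8 fell in KO against WT with vehicle, with a median log2 fold change of -0.41. Jund, the third JUN gene, changed by -0.79, the stress factor Atf4 by -0.61 and the small Maf gene Maff by -0.90. With MJ041, 3 rose and 6 fell (median 0.02), among them Atf4 (-0.66), Jund (-0.72) and the stress factor Ddit3 (1.81), which rose. Of 28 other immediate early genes, 5 rose and 15 fell with vehicle (median -0.38), and 7 rose and 11 fell with MJ041 (median -0.20). The antiproliferative gene Btg1 changed by -1.24 with vehicle and -1.34 with MJ041, and Klf6 by -1.16 with vehicle and -1.01 with MJ041. Zfp36l1, which encodes an mRNA decay factor, changed by -0.84 with vehicle, and Ccn2, a matricellular growth factor gene, by 1.45 with MJ041.

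Upstream kinases and transcription factors were mixed. Of 21 tested, 9 rose and 6 fell in KO with vehicle (median 0.06), and 6 rose and 8 fell with MJ041 (median -0.10). The ERK-activated kinase Rps6ka3 changed by 0.63 with vehicle and 0.62 with MJ041, and Elk4, a partner of serum response factor, by -0.52 with vehicle and -0.69 with MJ041. The MEK genes Map2k1 (-0.48, with vehicle) and Map2k2 (-0.47, with MJ041) fell. Of 17 feedback inhibitors of MAP kinase signalling, 6 rose and 3 fell with vehicle (median 0.03), and 7 rose and 4 fell with MJ041 (median 0.20). Errfi1, an inhibitor of the EGF receptor, changed by 0.82 with vehicle and 1.18 with MJ041, and Spred3 by 1.29 with vehicle and 1.84 with MJ041. The phosphatase genes Dusp5 (-0.97, with vehicle) and Dusp8 (-0.81, with MJ041) fell.

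Known AP-1 target genes went in both directions in KO cells. Of 20 tested, 5 rose and 7 fell with vehicle (median -0.57), and 8 rose and 2 fell with MJ041 (median 0.78). Kupffer, endothelial and stellate markers had medians of 0.30, -0.05 and -0.005 with vehicle, and 1.10, 0.42 and 0.50 with MJ041. The part of other cells in the target changes was not tested. The 3 targets named next, of lowest adjusted p, all rose, so none of the 7 that fell with vehicle is named. Ccnd1, which encodes cyclin D1, changed by 2.96 with vehicle and 2.53 with MJ041, and the EGF receptor ligand gene Hbegf by 1.05 with vehicle and 1.08 with MJ041. Plaur, the urokinase receptor gene, changed by 0.76 with vehicle and 1.15 with MJ041. Of 12 heat shock genes, read as a list of general stress, 2 rose and 5 fell with vehicle (median -0.31), and 1 rose and 6 fell with MJ041 (median -0.22). The co-chaperone gene Bag3 changed by -0.54 with vehicle and -0.65 with MJ041, and Hsph1 by -0.48 with vehicle and -0.46 with MJ041.

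For MJ041 against vehicle in WT, where 2.21% of all genes passed, 3 of the 6 lists held genes that passed. Of 28 other immediate early genes 2 fell, Trib1, a pseudokinase gene (-0.30, edgeR, adjusted p = 0.0352), and Zfp36l1 (-0.34, edgeR, adjusted p = 0.0374), with a list median of -0.17. Of 17 feedback inhibitors 2 fell, Errfi1 (-0.37) and the phosphatase gene Dusp7 (-0.42), with a median of -0.26. Of 20 AP-1 targets 3 fell and 1 rose, with a median of -0.81, beside the medians of -0.60, -0.67 and -0.42 of the Kupffer, endothelial and stellate markers. With the marker covariate none of these calls was made, as 0 genes of the whole set passed edgeR's test (2133 had an unadjusted p below 0.05). Mmp9, a gelatinase gene, averaged 0.281 CPM with MJ041 and 1.61 CPM with vehicle (-2.48), and the hyaluronan receptor gene Cd44 averaged 41.4 CPM with MJ041 and 83.8 CPM with vehicle (-1.02). The log2 fold change of Ccnd1, which rose, was 0.36. The median was -0.12 for partners, 0.06 for upstream genes and 0.02 for heat shock genes, among which the changes were 0.02 for Atf4, 0.03 for Jund, -0.06 for Map2k1, -0.03 for Hspa8 and 0.13 for Hspd1. In KO cells, where no gene of the whole set passed, the medians of the 6 lists lay between -0.09 and 0.01.

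**Figure D5:**
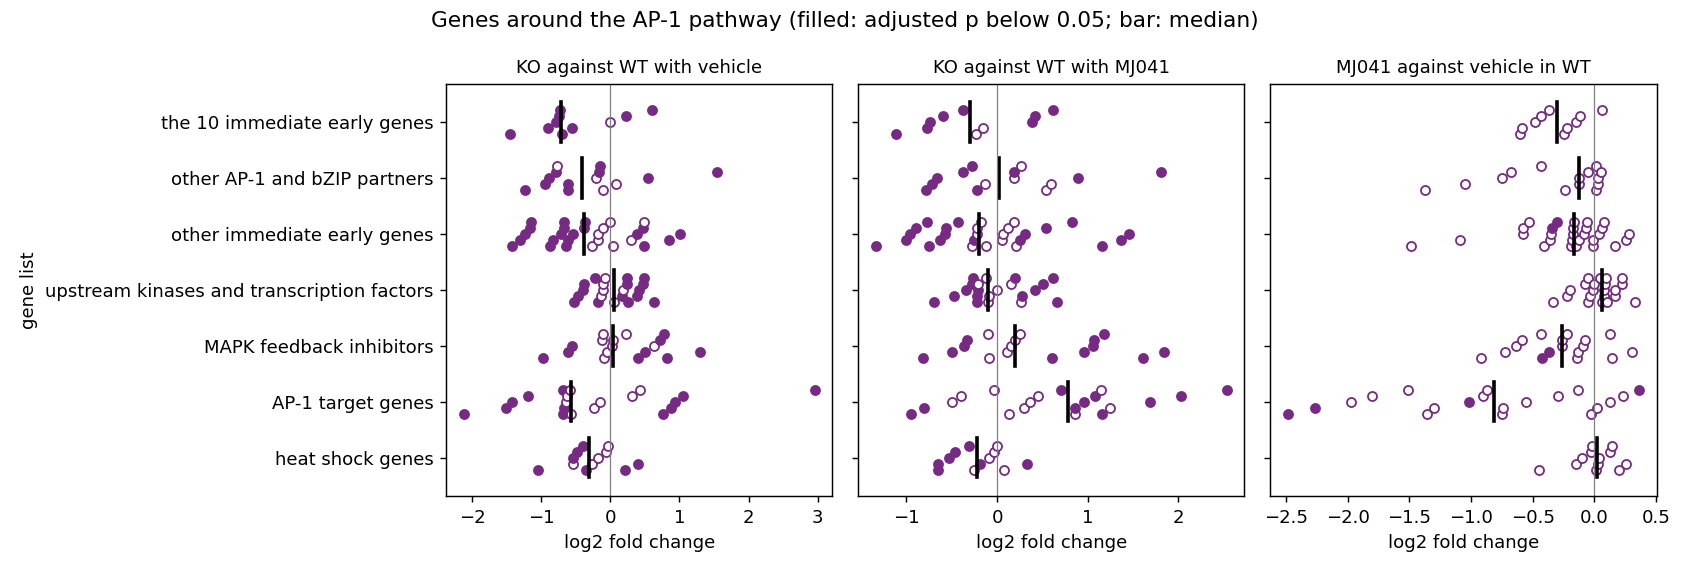
Log2 fold changes of the 10 genes and of 6 related lists in 3 comparisons; each circle is a tested gene, filled where its adjusted p is below 0.05, and black bars are list medians. For KO against WT with vehicle the median is -0.71 for the 10 genes and 0.06 for the 21 upstream genes.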

How the data were processed

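Read counts per Ensembl gene for 12 libraries were used as deposited by the authors, without normalization. Total RNA was extracted on columns, and stranded TruSeq libraries were read on an Element AVITI instrument, per the labels' protocols. FastQC, Trimmomatic 0.34, STAR 2.7.10b, featureCounts, DESeq2 and the build mm39 are named per the submitters' processing notes. Strand and multimapping settings of the counting are not given in the sources used here. Symbols, exon lengths and the exon overlaps with genes on the other strand came from GENCODE M21, an annotation of another build. No coordinates from it are printed, and 52081 of 55414 identifiers had a symbol. Promoter sequences are from RefSeq (GRCm38.p6).

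Counts were analysed in edgeR 4.0.16 (with limma 3.58.1, under R 4.3.3), and DESeq2 1.42.0 served as an alternative. The low-count filter was filterByExpr at a minimum of 10, scaling was by TMM, and the quasi-likelihood fit gave each group its own coefficient over the 12 libraries. P-values were adjusted by Benjamini-Hochberg over the 14919 tested genes, at a threshold of 0.05. Standard errors were derived from each log2 fold change and its F statistic, and 95% intervals from the t quantile at the total degrees of freedom. Deviations from group means used log2 CPM with a prior count of 2. The same steps were tested on simulated counts with 100 genes changed 1.5-fold and 100 changed 2-fold. For MJ041 against vehicle in WT, 76% and 98% of these were recovered, with 9 false calls. For KO against WT with vehicle, 79% and 92% were recovered, with 6 false calls. Counts were drawn separately for each gene, so spread shared between genes of a library was not simulated.

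All 10 members are named in each comparison. From each other list the text names up to 3 genes that passed, taken by lowest adjusted p, or the 2 of highest mean where none did; 1 gene named by this rule is not reported here. Some markers of cell types are named outside this rule, to show levels or changes that go the other way. For likeness the 2 genes with the highest correlation are named. The 10 members, the lists and the tests were chosen with earlier results of these data known. Library totals of 16740761 to 17902832 counts make counting error small for all members but Fosb and Fos. Within groups, pairs of libraries differed by more than sampling noise (chi-square over degrees of freedom from 4.73 to 16.0), so none was a repeat of another. Such a check cannot tell separate animals from technical replicates. Each library was counted as a sample. Alternatives were a fit to the 2 groups compared, DESeq2, no filter on low counts, a replicate block, the other-cell marker level as a covariate, and the omission of single libraries and of replicates 1 and 2 of WT with MJ041 together.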

Additional observations from a re-analysis of the deposited data

How the results depend on the processing

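No alternative reversed a called member. For KO against WT with vehicle, 180 of 190 recomputed member values kept their side of the threshold and 10 lost the call; with MJ041 165 did, 21 lost and 4 gained it. For MJ041 against vehicle in WT, 329 genes and 0 members were called. The counts of genes were 0 in the fit to the 2 groups compared, 649 with the replicate block and 0 with the marker covariate. From 30185 genes, DESeq2 called 906 after its own default filter on mean counts, and edgeR without the filter on low counts called 1667. Members called were 4 with DESeq2, 4 without the filter (Junb, Egr1, Ier2 and Ier3) and 2 with the block (Egr1, -0.61, and Ier3, -0.60). For KO against WT with MJ041 the covariate left 5 of 8 members called, and the fit to the 2 groups ended the calls of Fos (0.60) and Ier3 (0.40). For MJ041 in KO, 15 genes passed without the filter. For the interaction, DESeq2 called 227 genes, and without the filter 886 genes and 2 members (Egr1 and Ier3) passed; the causes were not tested. Leaving out 1 library at a time gave 7389 to 8495 genes and 7 to 9 members for KO against WT with vehicle, and 7321 to 8216 genes and 6 to 8 members with MJ041. It gave 0 to 2059 genes and 0 to 6 members for MJ041 in WT, 0 genes and 0 members in KO, and 0 to 852 genes and 0 to 3 members for the interaction. Libraries with the same replicate number did not deviate together in every pair of groups. Correlations ran from -0.19 to 0.67 over 18 pairs, and 9 of 12 libraries were closest to one of their own number. Between MJ041 and vehicle, replicates 1, 2 and 3 gave 0.49, 0.67 and 0.13 in KO and -0.03, 0.31 and 0.62 in WT. Replicate 1 of WT with MJ041 was closest to replicate 2 of WT with vehicle (0.62). The labels do not say whether numbers pair samples, so the block was kept as an alternative and pairing was neither assumed nor excluded. Depth limits Fosb, with 33 to 175 counts per library, and Fos, with 65 to 192.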
